A study of Mus musculus with 18 samples.

Results

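The nuclear genes of mitochondrial oxidative phosphorylation were followed through a comparison of 2 inbred mouse strains in 3 tissues. Members were the genes whose symbol in the platform annotation begins with Nduf followed by a, b, c, s or v, is Sdha, Sdhb, Sdhc or Sdhd, begins with Uqcr, with Cox and a digit from 4 to 8 or with Atp5, or is Cycs or Cyc1. This rule found 88 spots of 87 genes, among 20218 features with values, 15095 of them named genes. By complex there were 32 subunit genes of complex I and 7 of its assembly factors, 4 of complex II, 9 of complex III, 1 for cytochrome c, 12 of complex IV with 4 further forms that muscle or testis is known to use, 16 of complex V and 2 pseudogenes. The 12 of complex IV are all its other members, whatever tissues use them, and include Cox4i2, Cox7b2 and Cox7a2l. Ndufa4 is counted with complex I. Spots are named by that annotation, and no spot sequence was used to check the names.

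Complexes I to IV pass electrons from NADH and succinate to oxygen, and all of them but complex II pump protons across the inner mitochondrial membrane. Complex V, the ATP synthase, lets the protons back and makes ATP. Complex I has core subunits that carry the flavin and the iron-sulfur clusters, and many small supernumerary subunits around them. Complex V has a catalytic head, F1, and a membrane part with a stalk, F0. Brain, kidney tubule and liver all depend on this pathway, and its subunits are encoded partly by nuclear and partly by mitochondrial genes. The mitochondrial genes were not analysed here.

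DBA/2J was compared with C57BL/6J in whole brain, whole kidney and whole liver, with 6 two-colour glass arrays for each tissue. On every array RNA of DBA/2J, labelled with Alexa Fluor 647, was hybridised together with RNA of C57BL/6J, labelled with Alexa Fluor 555, and no dyes were swapped. Brain and kidney RNA came from pools of 10 per strain, taken to be mice, and liver RNA from pools of 9, and the 6 arrays of a tissue used the same pools, so a p-value weighs a ratio against repeat hybridisations of 1 pair of pools and not against differences among mice. No treatment, sex or age is given in the labels used here. Every value is a log2 ratio of DBA/2J over C57BL/6J. Its direction, positive where DBA/2J is higher, is the likely one from the order of the dyes in the labels and is not stated there. A dye effect of a spot cannot be told apart from a strain difference within a tissue, but cancels from a difference between tissues if it is constant. In bulk tissue, more cells of a type and more RNA per cell cannot be told apart.

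The deposited ratios behaved as ratios of raw intensities (array medians from -1.65 to 0.16) and were normalised here by print-tip loess, a smooth correction for spot intensity in each printed block. This step weighs on the members because their spots were bright. Their median intensity lay at the 89th percentile of all features in brain, the 95.6th in kidney and the 89.6th in liver, and none had a saturated channel. Before the correction, ratio and intensity correlated across spots by 0.614 to 0.715 on the kidney arrays, by 0.004 to 0.597 on the brain arrays and by -0.144 to 0.315 on the liver arrays. Across the 87 genes, kidney values with and without the correction correlated by 0.223, brain values by 0.898 and liver values by 0.889. Markers of the labelled tissues were bright where they belong. The neuronal Snap25 lay at the 99.1th intensity percentile in brain and at or below the 63.9th elsewhere, the tubule gene Umod at the 99.5th in kidney and at or below the 56.1th elsewhere, and the hepatocyte gene Apob at the 96.2th in liver and at or below the 14th elsewhere.

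Of the members, 69 were found by Entrez gene number in a RefSeq promoter table (GRCm38.p6). Promoter sequences are shown for the 3 of them with the largest brain over kidney difference and the 2 with the largest kidney over brain difference. Each is the 250 bases before the first listed start, and capitals mark matches of the motifs described further on. All 5 genes lie on the minus strand, and the sequences read in the direction of the gene.
Ndufa1 (chrX:37191239-37191488, minus strand): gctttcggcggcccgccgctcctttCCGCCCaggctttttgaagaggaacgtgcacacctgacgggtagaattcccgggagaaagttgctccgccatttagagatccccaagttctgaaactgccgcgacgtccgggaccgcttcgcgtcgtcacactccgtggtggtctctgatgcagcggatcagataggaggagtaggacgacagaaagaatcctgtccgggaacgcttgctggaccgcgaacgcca
Atp5j (chr16:84835626-84835875, minus strand): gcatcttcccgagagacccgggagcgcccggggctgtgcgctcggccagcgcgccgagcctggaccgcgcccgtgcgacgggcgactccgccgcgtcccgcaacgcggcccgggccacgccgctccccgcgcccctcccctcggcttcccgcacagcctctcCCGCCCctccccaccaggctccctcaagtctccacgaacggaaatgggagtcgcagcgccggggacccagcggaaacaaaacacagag
Cox7c (chr13:86046796-86047045, minus strand): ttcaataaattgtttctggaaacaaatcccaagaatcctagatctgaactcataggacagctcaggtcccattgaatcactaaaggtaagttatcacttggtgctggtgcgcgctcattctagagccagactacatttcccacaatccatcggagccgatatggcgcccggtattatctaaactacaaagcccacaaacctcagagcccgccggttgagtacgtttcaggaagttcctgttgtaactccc
Ndufa13 (chr8:69902021-69902270, minus strand): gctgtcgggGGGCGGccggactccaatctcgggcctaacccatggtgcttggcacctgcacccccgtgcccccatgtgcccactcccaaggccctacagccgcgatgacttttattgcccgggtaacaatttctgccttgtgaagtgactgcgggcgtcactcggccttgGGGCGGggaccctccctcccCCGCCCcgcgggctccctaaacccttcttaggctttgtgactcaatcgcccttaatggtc
Ndufv1 (chr19:4012756-4013005, minus strand): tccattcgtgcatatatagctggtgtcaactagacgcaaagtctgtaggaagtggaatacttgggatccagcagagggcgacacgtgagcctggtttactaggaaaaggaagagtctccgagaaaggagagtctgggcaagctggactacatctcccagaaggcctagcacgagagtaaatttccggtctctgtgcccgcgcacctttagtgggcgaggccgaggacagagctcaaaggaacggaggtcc

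In brain the members were shifted towards DBA/2J. At an adjusted p under 0.05 in limma with Benjamini-Hochberg adjustment, 26 of the 87 genes were higher in DBA/2J, 2 were lower and 59 did not pass, where 13.8% of all features passed, 7.51% higher and 6.31% lower. The median log2 ratio over the 87 genes was 0.18, against 0.0052 over all features. The median member ratio was -0.06 on array 1 and lay between 0.17 and 0.34 on the other arrays. Array 1 was the lowest of the 6 for 53 of the 87 genes. Without array 1 there were 37 genes higher and 4 lower, and without any one of the others 14 to 16 higher.

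In kidney the balance was the reverse after loess, with 9 genes higher in DBA/2J, 23 lower and 55 not past the threshold, whereas without loess 72 were higher and 5 lower. Over all features 38.4% passed, 19.2% in each direction, so a total of 32 of 87 was near the background and only the split between directions differed from it. The median member was -0.07 with print-tip loess, 0.08 with the intensity scale left unrestored and 0.65 without loess, while the median of all features stayed between -0.003 and 0.04. Kidney directions below are those after print-tip loess.

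In liver the balance was again towards DBA/2J. There 24 genes were higher in DBA/2J, 7 were lower and 56 did not pass, where 22.7% of all features passed, 10.7% higher and 12% lower. The median member was 0.10. All 6 liver arrays had a median member above 0, from 0.05 on array 3 to 0.28 on array 1, and array 1 was the highest for 39 of the 87 genes. Leaving out array 1 left 14 genes higher and 5 lower, and the total fell to 19 without array 1 or 4 and to 20 without array 3. The lower genes numbered 4 without array 3, 3 without array 4 and 4 without array 5.

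**Figure D1:**
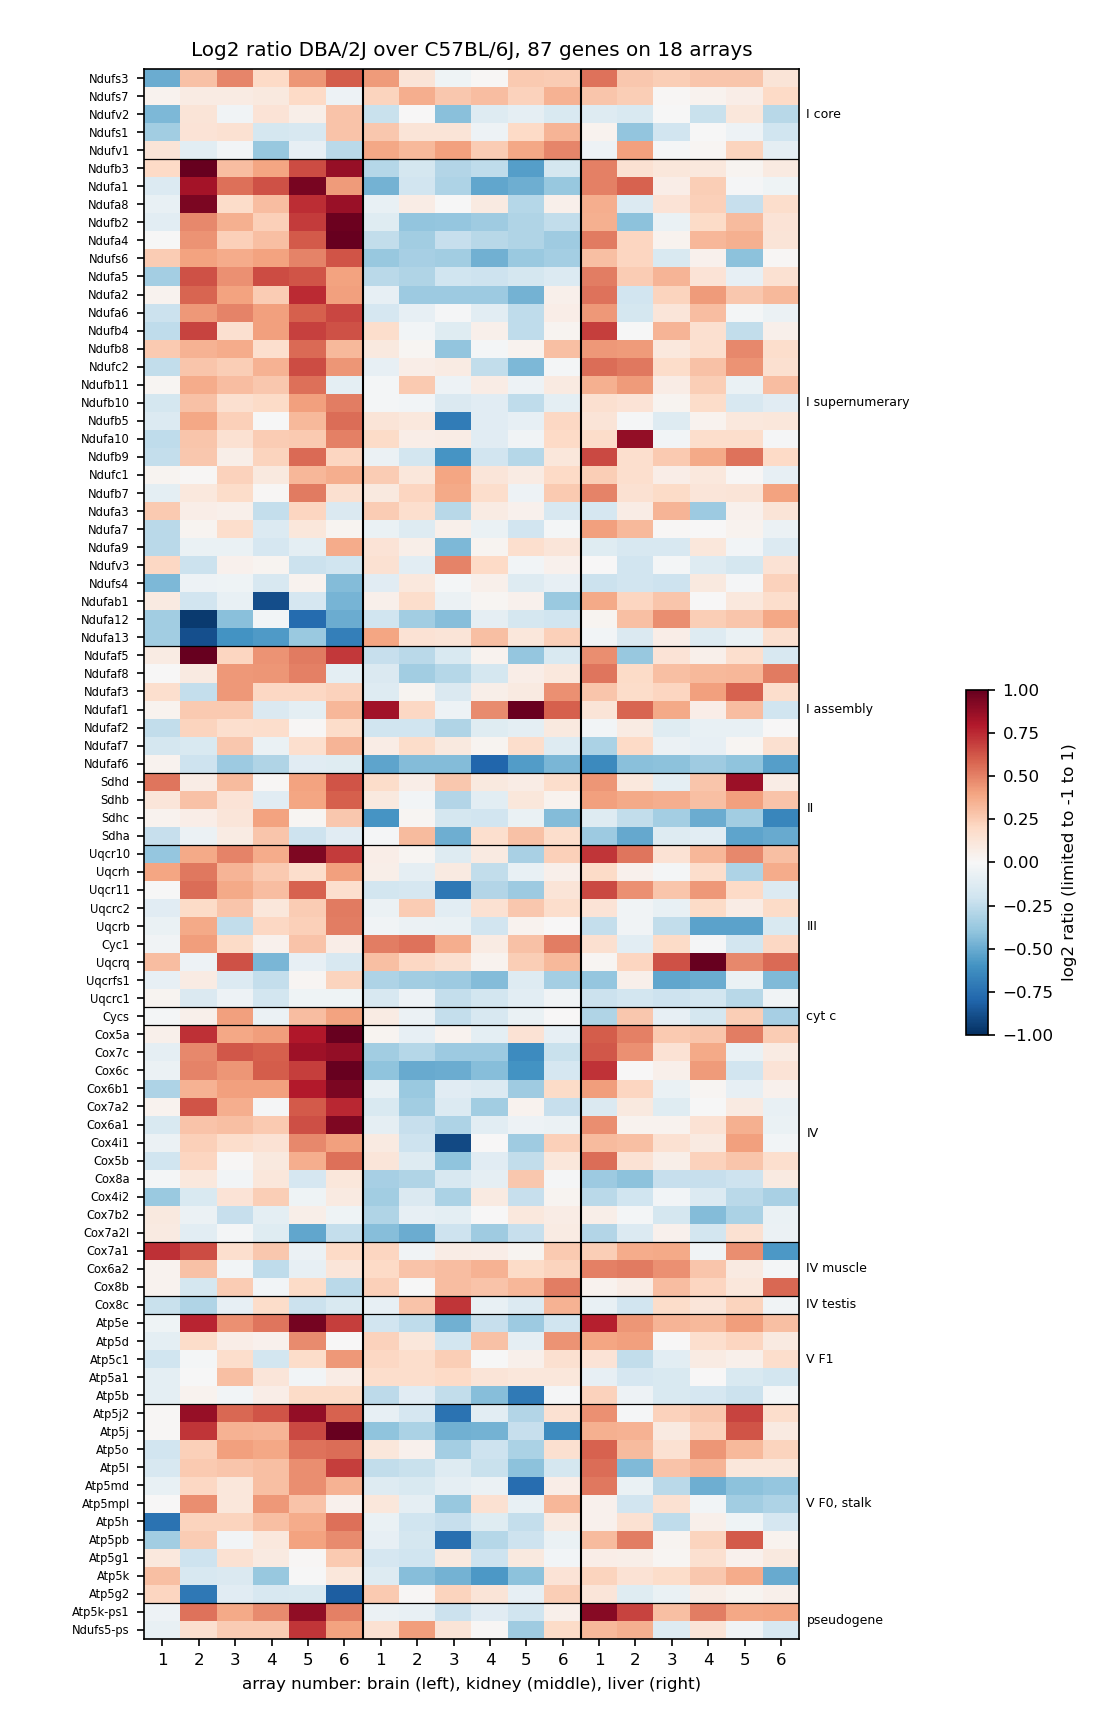
Log2 ratio of DBA/2J over C57BL/6J for each of the 87 genes (rows, grouped by complex and subunit class and ordered by the brain mean) on each of the 18 arrays (columns, 6 per tissue), with red for higher in DBA/2J and colours limited to -1 and 1. The small subunits of complexes I, IV and V are mostly red on brain arrays 2 to 6 and mostly blue on kidney arrays 1 to 5 (the class medians on kidney array 6 lie between 0.007 and 0.09), where the blue depends on loess and turns to positive ratios without it.

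Complex I, the NADH dehydrogenase, had 11 subunit genes higher and 2 lower of 32 in brain, 4 higher and 8 lower in kidney after loess (median -0.03, and 0.67 without it) and 8 higher and 0 lower in liver. Counts by complex here and below compare with 13.8% of all features passing in brain, 38.4% in kidney and 22.7% in liver. In kidney the totals of complexes I, III, IV and V lay near that share, as did that of complex I in liver. None of the 5 core subunits measured passed in brain. The 11 higher and 2 lower genes there were all among the 27 supernumerary subunits.

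Among the core subunits, Ndufv1, which binds the flavin that takes electrons from NADH, was higher in DBA/2J kidney. Its 6 kidney ratios ran from 0.25 through a median of 0.38 to 0.49, with a mean of 0.37 ± 0.08 (SD, n = 6), 1.30-fold (limma adjusted p = 0.00049). In brain they ran from -0.38 to 0.13, so that every brain array lay below every kidney array. Ndufs7, which carries the last iron-sulfur cluster before ubiquinone, was similar in kidney, at 0.29 ± 0.06 and positive on all 6 arrays (adjusted p = 0.00233), and its 6 brain arrays also lay below its kidney arrays. Ndufs3 passed in liver only among the 3 tissues, at 0.29 ± 0.14, although its brain mean of 0.25 ± 0.39 was as large with a wider spread. Ndufs1 and Ndufv2 passed in no tissue, with means between -0.17 and 0.17.

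Several supernumerary subunits were higher in DBA/2J in brain and lower in kidney. Ndufa1, a small membrane subunit, was low on brain array 1 (-0.14) and lay between 0.42 and 0.95 on the other brain arrays, with a median over the 6 of 0.59. Its kidney arrays ran from -0.52 through -0.43 to -0.20, and its liver arrays from -0.04 to 0.59. The brain arrays thus all lay above the kidney arrays, and the means were 0.54 ± 0.38 in brain (adjusted p = 0.0127), -0.40 ± 0.12 in kidney (adjusted p = 0.000536) and 0.23 ± 0.27 in liver, which did not pass.

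Ndufs6, a zinc-binding subunit of the arm that holds the clusters, had the same pattern with little spread between arrays. Its brain ratios ran from 0.26 through 0.40 to 0.63 and its kidney ratios from -0.48 through -0.36 to -0.33, with no overlap. The means were 0.43 ± 0.12 in brain (limma adjusted p = 0.00402) and -0.38 ± 0.06 in kidney (adjusted p = 0.000389), and the liver mean was 0.00 ± 0.26.

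Ndufb3, a membrane-arm subunit, had the highest brain mean of complex I, 0.59 ± 0.35 or 1.5-fold, and was positive on all 6 brain arrays, from 0.20 to 1.11. In kidney it was negative on all 6, from -0.55 to -0.17. Ndufa4, first assigned to complex I and later placed with complex IV, was higher in brain (0.43 ± 0.35), lower in kidney (-0.29 ± 0.05) and higher in liver (0.26 ± 0.17). Ndufa2, Ndufa5 and Ndufb2 were also past the threshold higher in brain and lower in kidney, with brain means from 0.40 to 0.44 and kidney means from -0.30 to -0.21.

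Ndufa12 and Ndufa13 were the 2 supernumerary subunits past the threshold as lower in brain, where 20 of the 27 had means above 0. Without loess their brain means were -0.29 and -0.23, and neither passed. Ndufa13, also known as Grim19, was negative on all 6 brain arrays, from -0.88 through -0.58 to -0.35, and positive on all 6 kidney arrays, from 0.11 to 0.40. Its brain mean of -0.57 ± 0.20 was 1.49-fold lower in DBA/2J (adjusted p = 0.00158), its kidney mean was 0.22 ± 0.11 (adjusted p = 0.0173), and its liver mean was -0.02 ± 0.12. Ndufa12, a subunit added late in assembly, was negative on all 6 arrays of brain and of kidney and positive on all 6 of liver. Its brain arrays ran from -0.96 through -0.46 to -0.03 and its liver arrays from 0.03 through 0.29 to 0.47. The means were -0.50 ± 0.33, -0.24 ± 0.12 and 0.28 ± 0.15 in brain, kidney and liver, each past the threshold.

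In liver the higher supernumerary subunits were Ndufb9 (0.37 ± 0.20), Ndufc2 (0.36 ± 0.17), Ndufb8 (0.30 ± 0.17), Ndufa12, Ndufa2, Ndufa4 and Ndufb7 (0.25 ± 0.16). Ndufb8 was also higher in brain, at 0.34 ± 0.13 with all 6 arrays positive. In kidney Ndufc1 was higher, at 0.20 ± 0.12, beside Ndufa13. Ndufc1 did not pass there with 1 loess curve per array, with unrestored intensity or without array 1, 3, 4 or 6. Ndufa13 did not pass there without array 1 or 4.

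The 7 assembly factors, proteins that help build complex I and are not part of it, gave 1 higher in brain, 1 higher and 2 lower in kidney, and 2 higher and 1 lower in liver. Ndufaf6 was lower in DBA/2J on all 6 arrays of kidney, from -0.79 through -0.49 to -0.43, and of liver, from -0.64 through -0.41 to -0.35. Its means were -0.53 ± 0.14 in kidney (limma adjusted p = 6.07e-05), -0.46 ± 0.11 in liver (adjusted p = 0.000663) and -0.18 ± 0.14 in brain, which did not pass. It had the lowest kidney mean and the lowest liver mean of the 87 genes, and its kidney ratio without loess was -0.06 and did not pass. Ndufaf5, which modifies a core subunit during assembly, was higher in brain (0.51 ± 0.36) and lower in kidney (-0.19 ± 0.14). Ndufaf1 was higher in kidney at 0.51 ± 0.39, with array 3 at -0.05 and array 5 at 0.99. Ndufaf8 and Ndufaf3 were higher in liver, at 0.37 ± 0.13 and 0.31 ± 0.17. Ndufaf3 did not pass in liver without loess (0.09) or with 1 loess curve per array (0.14).

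Complex II, succinate dehydrogenase, links the citric acid cycle to the respiratory chain. Its 4 subunits had calls in both directions. Sdha, the flavoprotein that oxidises succinate, was negative on all 6 liver arrays, from -0.53 through -0.43 to -0.11, with a mean of -0.36 ± 0.20 (adjusted p = 0.0075). Sdhb, the iron-sulfur subunit bound to it, was positive on all 6 liver arrays in a narrow range from 0.29 to 0.41, with a mean of 0.36 ± 0.05 (adjusted p = 0.00194). These 2 subunits of the catalytic part thus lay on opposite sides of 0 with no overlap between their liver arrays.

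Of the membrane anchors, Sdhc was lower in liver (-0.37 ± 0.18, adjusted p = 0.00561) and in kidney (-0.24 ± 0.23, adjusted p = 0.0332), where its ratio without loess was 0.49. In brain it was positive on all 6 arrays, from 0.02 to 0.40, at 0.15 ± 0.15, and did not pass. Sdhd was higher in brain (0.33 ± 0.25, adjusted p = 0.0324) and positive but not past the threshold in kidney (0.14 ± 0.08) and liver (0.28 ± 0.34). The other values of complex II, for Sdha and Sdhb in brain and kidney, lay between -0.04 and 0.24 and did not pass.

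Complex III, which passes electrons from ubiquinol to cytochrome c, had 2 of 9 genes higher in brain, 2 higher and 2 lower in kidney (median -0.03, and 0.56 without loess), and 3 higher and 2 lower in liver. Cyc1, its cytochrome c1 subunit, was higher in kidney, where the 6 ratios ran from 0.09 through 0.44 to 0.54 and the mean was 0.39 ± 0.18 (adjusted p = 0.00123). Uqcrfs1, the Rieske iron-sulfur subunit, was lower on all 6 kidney arrays (-0.32 ± 0.10, adjusted p = 0.0017) and lower in liver (-0.31 ± 0.24, adjusted p = 0.0238). Its kidney ratio was 0.28 without loess and 0.11 with unrestored intensity.

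The small subunits Uqcrq, Uqcrb and Uqcr10 differed from each other in liver. Uqcrq was positive on all 6 liver arrays but ran from 0.02 to 1.57, with a mean of 0.58 ± 0.54, the highest liver mean of the 87 genes. It was also higher in kidney (0.21 ± 0.10), with -0.14 there without loess. Uqcr10 was higher in liver at 0.42 ± 0.20. Uqcrb was lower there at -0.29 ± 0.20, with 0.01 without loess and 0.008 with unrestored intensity, so its direction rests on the setting. Uqcrh, the hinge protein that contacts cytochrome c1, was higher in brain on all 6 arrays, from 0.18 to 0.53. Uqcr11 passed in all 3 tissues, at 0.33 ± 0.23 in brain, -0.27 ± 0.28 in kidney and 0.31 ± 0.27 in liver. Uqcrc1 and Uqcrc2, the large core proteins, passed in no tissue, with means from -0.18 to 0.21.

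Cycs, the mobile carrier cytochrome c, did not pass in any tissue. Brain had a mean of 0.18 ± 0.22, kidney one of -0.07 ± 0.12 and liver one of -0.06 ± 0.27, with both signs among the 6 arrays of each tissue.

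Complex IV, cytochrome c oxidase, had the highest median of the complexes in brain, 0.30, with 6 of 12 genes higher and 0 lower. In kidney 0 were higher, 4 were lower and all 12 means were below 0 after loess, with a median of -0.15 that became 0.65 without loess. In liver 3 were higher and 2 lower. The complex median was below 0 on brain array 1 (-0.06) and between 0.19 and 0.65 on the others, below 0 on kidney arrays 1 to 5 and 0.007 on kidney array 6.

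Cox6c and Cox7c, small membrane subunits around the catalytic core, had the lowest kidney means of complex IV and, after Cox5a, its highest brain means. Cox6c ran from -0.06 through 0.55 to 1.03 in brain and from -0.60 through -0.46 to -0.17 in kidney, and the arrays did not overlap. Cox7c ran from -0.09 through 0.61 to 0.88 in brain and from -0.63 through -0.35 to -0.22 in kidney, again without overlap. The means for Cox6c were 0.54 ± 0.36 (adjusted p = 0.011) and -0.43 ± 0.15 (adjusted p = 0.000361), or 1.45-fold higher and 1.35-fold lower in DBA/2J. For Cox7c they were 0.56 ± 0.35 and -0.37 ± 0.14, and 0.27 ± 0.26 in liver, past the threshold in each tissue.

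Cox5a, a subunit on the matrix side, was higher in brain (0.57 ± 0.35) and liver (0.40 ± 0.16), positive on all 6 arrays of both, and at -0.01 ± 0.09 in kidney. Cox7a2 was higher in brain (0.40 ± 0.32) and lower in kidney (-0.20 ± 0.15). Cox6a1 and Cox6b1 were higher in brain, with means of 0.38 ± 0.37 and 0.43 ± 0.43. Cox5b was higher in liver (0.24 ± 0.17), and Cox8a and Cox4i2 were lower there (-0.23 ± 0.17 and -0.21 ± 0.11). Cox4i2 did not pass in liver with 1 loess curve per array or without array 1, 2, 4, 5 or 6. Cox7a2l, which takes part in joining complexes III and IV into supercomplexes, was lower in kidney (-0.27 ± 0.21).

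Of the 4 forms known from other tissues, the heart and muscle form Cox6a2 was higher in kidney (0.26 ± 0.06) and liver (0.30 ± 0.23), and Cox8b, also of muscle and brown fat, was higher in kidney (0.28 ± 0.17). Skeletal muscle markers were higher in DBA/2J liver for 4 of 6 genes, with a median of 0.34 and Acta1 at 1.55 ± 0.74. In kidney 3 of 6 were lower, with a median of -0.21. Of all features 22.7% passed in liver and 38.4% in kidney, so the kidney count lay near that share. With 1 loess curve per array 5 of the muscle markers were higher in liver and 0 passed in kidney. Of 3 brown fat markers in kidney, Ucp1 was higher (0.35 ± 0.20), Elovl3 was lower (-0.20 ± 0.17) and Cidea did not pass (-0.11 ± 0.27). The part of such tissue in the Cox6a2 and Cox8b values was not tested. Cox7a1 and the testis form Cox8c did not pass in any tissue.

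Complex V had 4 of 16 genes higher and 0 lower in brain, 0 higher and 6 lower in kidney after loess, and 5 higher and 0 lower in liver. Its complex medians were 0.15, -0.16 and 0.09, and the kidney median became 0.71 without loess.

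In the F1 head, Atp5a1, Atp5c1 and Atp5d, the alpha, gamma and delta subunits, passed in no tissue. Atp5b, the catalytic beta subunit, was lower in kidney at -0.29 ± 0.24 (adjusted p = 0.0145), with a single-array range from -0.70 to -0.01 and a ratio of 0.89 without loess. Atp5e, the small epsilon subunit, differed from the other head subunits in brain, where it ran from -0.04 through 0.61 to 0.95. Its kidney arrays ran from -0.48 to -0.19 and its liver arrays from 0.30 to 0.78, so that the kidney arrays lay below those of both other tissues. The means were 0.56 ± 0.34 (adjusted p = 0.00813), -0.29 ± 0.11 (adjusted p = 0.00389) and 0.43 ± 0.18 (adjusted p = 0.00216).

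In the membrane part and stalk, Atp5j, coupling factor 6 of the stalk, ran from 0.01 through 0.50 to 0.99 in brain, from -0.63 through -0.43 to -0.23 in kidney and from 0.09 through 0.29 to 0.63 in liver. The kidney arrays lay below all arrays of the other tissues, and the means of 0.51 ± 0.35, -0.42 ± 0.14 and 0.29 ± 0.20 all passed. Atp5j2, subunit f, had the highest brain mean of the 87 genes, 0.59 ± 0.31 or 1.51-fold, with array 1 at 0.02. Atp5o, the stalk subunit that holds the head in place, was higher in brain (0.32 ± 0.28) and liver (0.34 ± 0.16). Atp5pb, subunit b, was lower in kidney (-0.26 ± 0.25) and higher in liver (0.29 ± 0.24). Atp5l and Atp5k, subunits g and e, were lower in kidney (-0.23 ± 0.10 and -0.31 ± 0.27). Atp5g1 and Atp5g2, which encode the same c-ring protein, did not pass in any tissue.

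Atp5md was the only member with 2 spots, and these disagreed in sign in kidney and liver. In brain their means were 0.15 ± 0.45 and 0.30 ± 0.18. In kidney one spot had a mean of -0.60 ± 0.54 and the other 0.22 ± 0.13, and in liver they had -0.64 ± 0.63 and 0.28 ± 0.17. For every other member a single spot stands for the gene. The pseudogene Atp5k-ps1 was higher in brain (0.46 ± 0.30) and liver (0.53 ± 0.23), where the gene Atp5k did not pass, and reads of near-identical copies cannot be told apart by hybridisation. The other pseudogene, Ndufs5-ps, did not pass in any tissue.

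**Figure D2:**
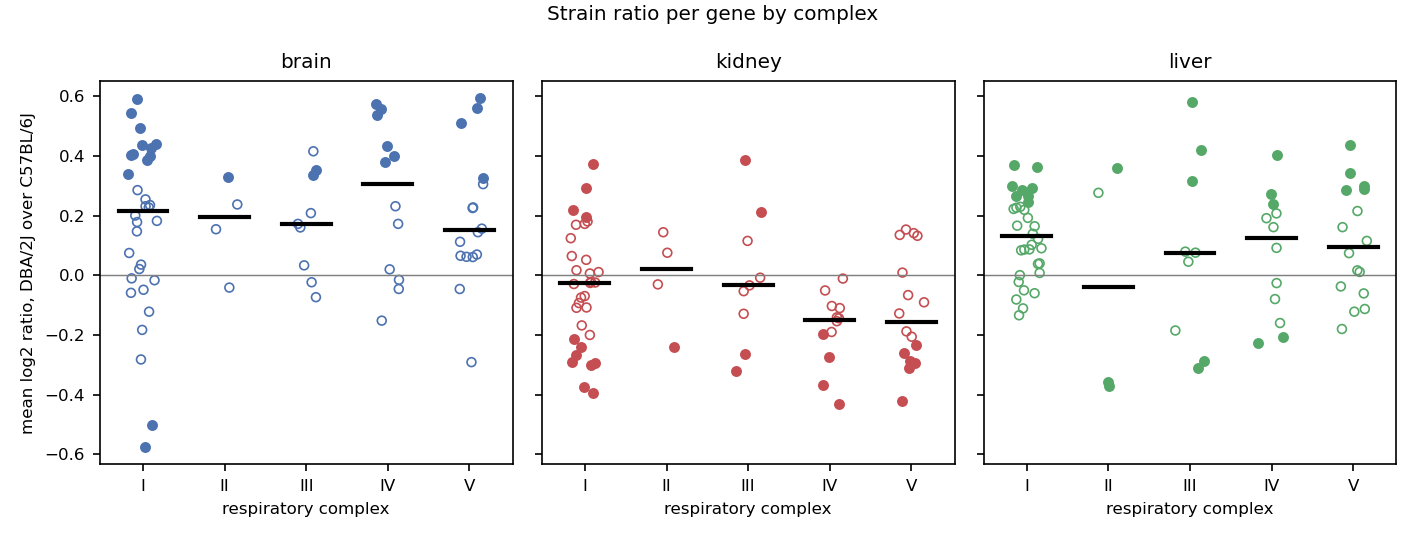
Mean log2 ratio of DBA/2J over C57BL/6J for each subunit gene of complexes I to V in brain, kidney and liver, each point the mean of 6 arrays, filled where it passed an adjusted p of 0.05, with a bar at the median of the complex. The medians run from 0.15 to 0.30 in brain, from -0.16 to 0.02 in kidney after loess (0.56 to 0.71 without it) and from -0.04 to 0.13 in liver.

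The difference between tissues was tested directly in a fit of all 18 arrays. Between brain and kidney, 34 members had a higher ratio in brain, 3 a lower one and 50 did not pass, where 21.7% of all features passed, 11.3% higher and 10.4% lower. Without loess the counts were 2 higher and 31 lower, so the direction of the set against all genes rests on that correction. The largest differences were for Cox6c (0.97 ± 0.15 SE, limma adjusted p = 9.11e-05), Ndufa1 (0.94 ± 0.15), Atp5j (0.93 ± 0.13), Cox7c (0.92 ± 0.14), Ndufb3 (0.88 ± 0.13), Atp5e (0.85 ± 0.13), Ndufs6 (0.80 ± 0.11) and Atp5j2 (0.80 ± 0.15). The 3 members with a lower ratio in brain were Ndufa13 (-0.80 ± 0.10, adjusted p = 5.66e-06), Ndufv1 (-0.50 ± 0.10, adjusted p = 0.0014) and Atp5g2 (-0.42 ± 0.13, adjusted p = 0.0255), and there were 5 of them without brain array 4 or kidney array 2. Without loess these 3 were at -1.44, -0.94 and -1.08, and the 8 differences above 0 lay between -0.03 and 0.22 and did not pass. The median member difference was -0.24 there, so the sign of these 3 without loess is no separate support. Atp5g2 did not pass with unrestored intensity, or without brain array 2 or 6 or kidney array 1. Ndufv1 did not pass with 1 loess curve per array.

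For 12 members every brain array lay above every kidney array, and for 3 it lay below (Ndufa13, Ndufs7 and Ndufv1), where 7.90% of all features had no overlap in either direction. The 12 were Atp5e, Atp5j, Cox6c, Cox7c, Ndufa1, Ndufa4, Ndufaf5, Ndufaf6, Ndufb2, Ndufb3, Ndufs6 and Uqcrh.

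Both strain tests passed in opposite directions for 14 members, higher in brain and lower in kidney, or 16.1% of the 87 genes, where this held for 0.752% of all features. They were Ndufa1, Ndufa2, Ndufa4, Ndufa5, Ndufb2, Ndufb3, Ndufs6, Ndufaf5, Uqcr11, Cox6c, Cox7a2, Cox7c, Atp5e and Atp5j. None is a core subunit of complex I, and Atp5e alone is of the F1 head. With 1 loess curve per array the count was 10, with unrestored intensity 4 (Cox6c, Ndufa1, Ndufa2 and Ndufaf5) and without loess 0.

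Between brain and liver, 5 members had a higher ratio in brain, 3 a lower one and 79 did not pass, where 7.69% of all features passed, 4.39% higher and 3.3% lower. The share of members that passed was near that of all features. The higher ones were Sdhc (0.52 ± 0.11 SE), Uqcrb (0.46 ± 0.12), Ndufs6 (0.42 ± 0.10), Cox7a2 (0.42 ± 0.12) and Ndufb3 (0.42 ± 0.13). Uqcrb and Cox7a2 did not pass without loess, with 1 loess curve per array or with unrestored intensity. Ndufb3 did not pass with 1 loess curve per array or with a replicate block, and Ndufs6 did not with unrestored intensity. The lower ones were Ndufa12 (-0.79 ± 0.12, limma adjusted p = 0.000157), Ndufa13 (-0.55 ± 0.10) and Ndufab1 (-0.47 ± 0.13), the acyl carrier protein. Ndufa12 and Ndufa13 did not pass without loess, at -0.55 and -0.32. Ndufab1 did not pass with 1 loess curve per array or with unrestored intensity. Arrays of the tissues did not overlap for Sdhc, Ndufa12 and Ndufa13, where 3.77% of all features had none. Leaving out brain array 1 raised the higher genes to 15, and leaving out brain array 2, 5 or 6 or liver array 3 or 6 lowered them to 3.

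Between kidney and liver, 3 members had a higher ratio in kidney, 22 a lower one and 62 did not pass, where 16.7% of all features passed, 9.41% higher and 7.24% lower. Without loess the counts were 51 higher and 4 lower. The higher ones were Sdha (0.43 ± 0.13 SE), Cyc1 (0.34 ± 0.11) and Atp5a1 (0.28 ± 0.08), and only 1 of them was left without kidney array 2. The lower ones included Atp5e (-0.72 ± 0.13, limma adjusted p = 0.000284), Atp5j (-0.71 ± 0.13), Cox7c (-0.64 ± 0.14) and the pseudogene Atp5k-ps1 (-0.63 ± 0.12). Arrays did not overlap for 16 members, 15 of them lower in kidney, where 8.32% of all features had no overlap.

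**Figure D3:**
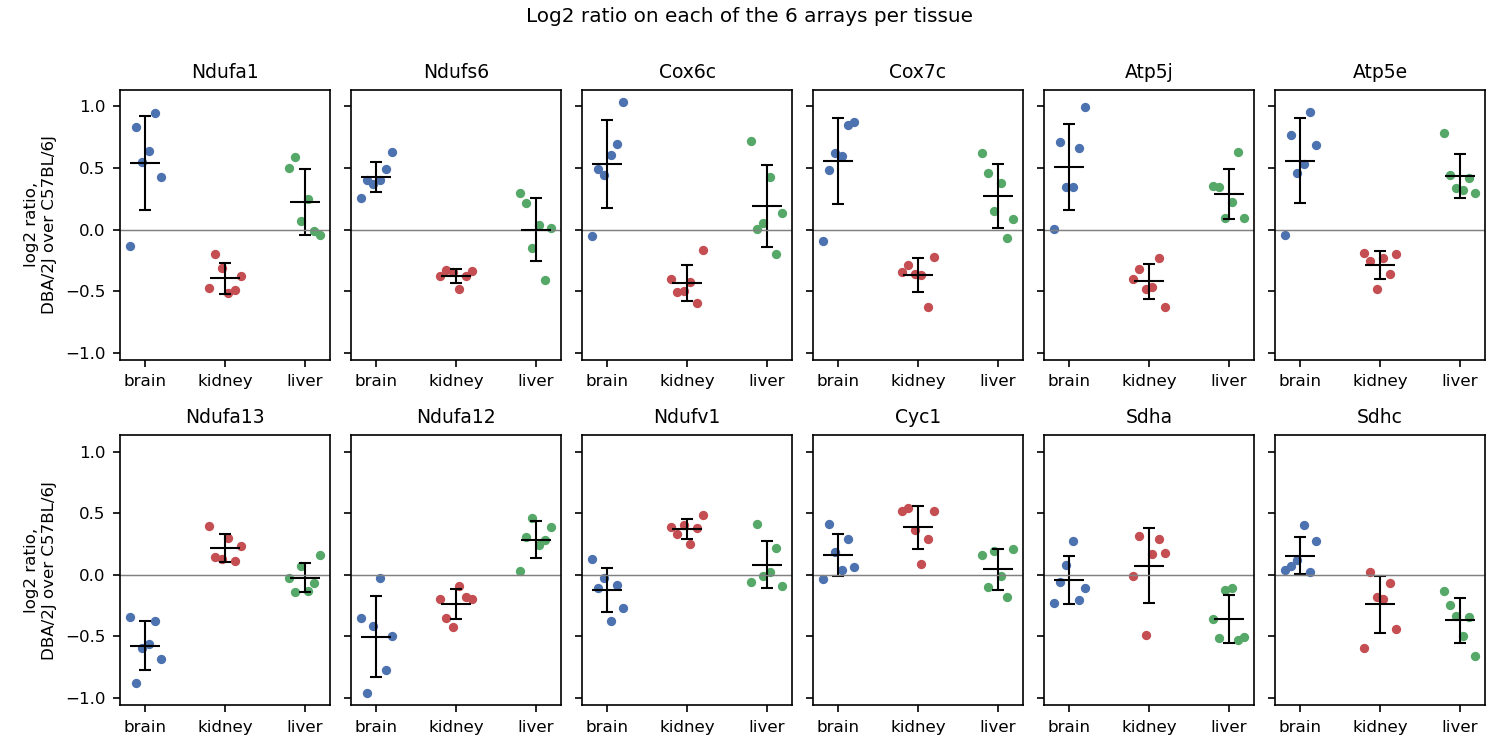
Log2 ratio of DBA/2J over C57BL/6J on each of the 6 arrays of brain, kidney and liver for 12 genes, with the mean (bar) and SD (whiskers). The brain points lie above the kidney points for the 6 genes of the upper row and below them for Ndufa13 and Ndufv1, and the kidney values below 0 depend on loess (Ndufa1 0.46, Ndufs6 0.40, Cox6c 0.65, Cox7c 0.66, Atp5j 0.49 and Atp5e 0.69 without it).

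**Figure D4:**
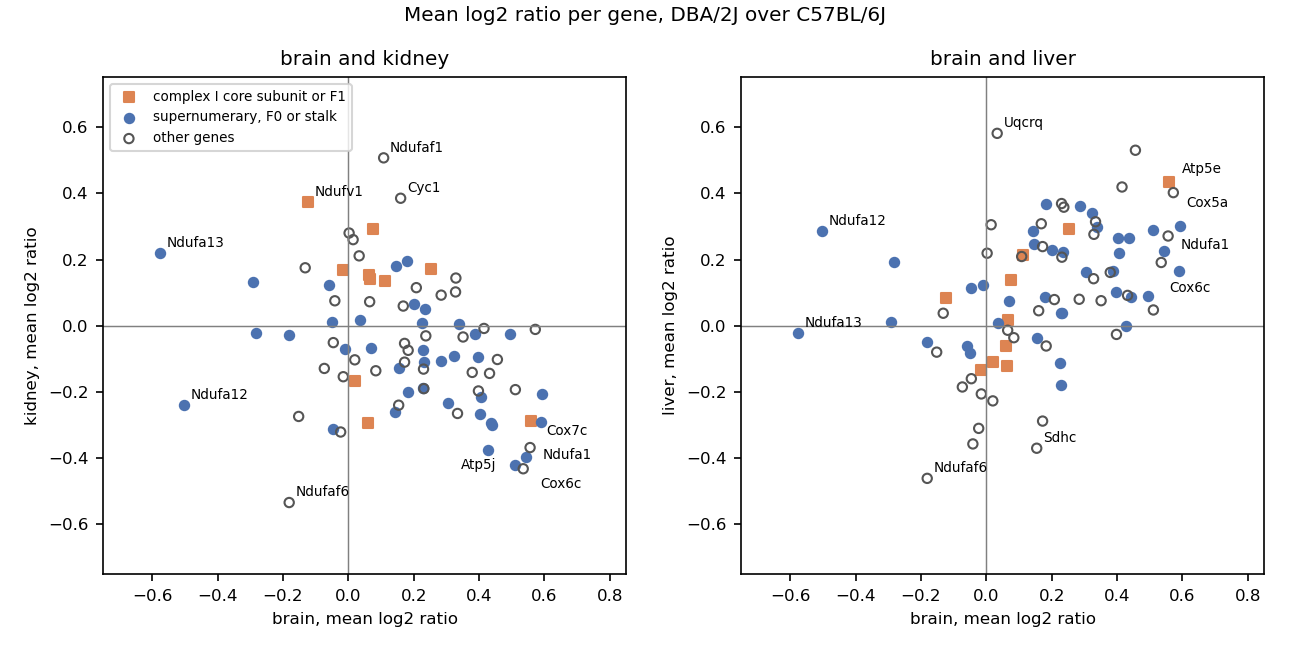
Mean log2 ratio per gene in brain against kidney (left) and against liver (right) for the 87 genes, with complex I core and F1 subunits as squares, supernumerary, F0 and stalk subunits as filled circles and other genes as open circles. Across the 87 genes brain and kidney correlate by -0.349 and brain and liver by 0.428, both after print-tip loess. Without loess the kidney ratios are mostly positive and correlate by 0.223 with those shown, and the correlations between tissues were not computed.

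In all 3 tissues 7 members passed (Atp5e, Atp5j, Cox7c, Ndufa12, Ndufa2, Ndufa4 and Uqcr11), and 0 of them in a single direction. Over all features 3.37% passed in all 3 tissues and 2.81% in a single direction. The 7 members rest on print-tip loess. With unrestored intensity each of the 7 lost its call in kidney or liver. With 1 loess curve per array only Atp5j kept all 3 calls. Without loess the kidney ratio of all 7 was above 0, and Atp5e, Atp5j, Ndufa2 and Uqcr11 passed as higher in all 3 tissues. With 1 averaged value per tissue as the unit, 0 of the 20218 features passed in limma after adjustment, and at an unadjusted p under 0.05 there were 9 members (10.3%) and 18.1% of all features. The 9 were Ndufaf6 (-0.39) and Uqcrfs1 (-0.22), with means below 0 in all 3 tissues, Ndufs3, Sdhd, Ndufaf1, Ndufb7 and Uqcrq, with means above 0 in all 3, and Uqcr10 and Cox5a, with means above 0 in brain and liver and -0.01 in kidney.

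Across the 87 genes the brain and kidney ratios correlated by a Pearson's r of -0.349 (Spearman's rho -0.373), and 53 genes had opposite signs, where all 20218 features correlated by 0.307. Brain and liver ratios correlated by 0.428 over the members and 0.438 over all features, and kidney and liver by 0.0753 and 0.368. The genes share their arrays, dyes and pools, so these values describe the set and were not tested. They were computed after print-tip loess only, and kidney values of the members with and without loess correlated by 0.223.

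Differences between subunit classes within an array need no level common to all genes. On each array the median supernumerary subunit of complex I was set against the median core subunit. In brain the supernumerary median was above the core median on 6 of 6 arrays, by 0.20 ± 0.14 (SD over arrays), and in kidney below it on 6 of 6 arrays, by 0.26 ± 0.12. In liver it was above on 4 of 6 arrays, by 0.10 ± 0.17. In complex V the F0 and stalk subunits stood to the F1 subunits in the same way, above in brain on 5 of 6 arrays by 0.17 ± 0.11, below in kidney on 6 of 6 by 0.18 ± 0.09 and above in liver on 5 of 6 by 0.09 ± 0.08.

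The order of the classes held under every normalisation tried. From the means over arrays, the kidney supernumerary median was below the core median by 0.24 with print-tip loess, 0.28 without loess and 0.44 with unrestored intensity, and the F0 and stalk median below the F1 median by 0.32, 0.28 and 0.45. In brain the supernumerary median was above the core median by 0.21, 0.14 and 0.21, and the F0 and stalk median above the F1 median by 0.16, 0.22 and 0.16. Median intensity percentiles of the supernumerary and core subunits were 96.3 and 95.5 in kidney and 92.3 and 89 in brain. Those of F0 with stalk and F1 were 97.7 and 99 in kidney and 92.2 and 91.9 in brain. The part of brightness in the class differences was not tested. The core and F1 classes hold 5 genes each, so a median there is a single gene, and no test was made because the classes were drawn up with results of these arrays known.

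**Figure D5:**
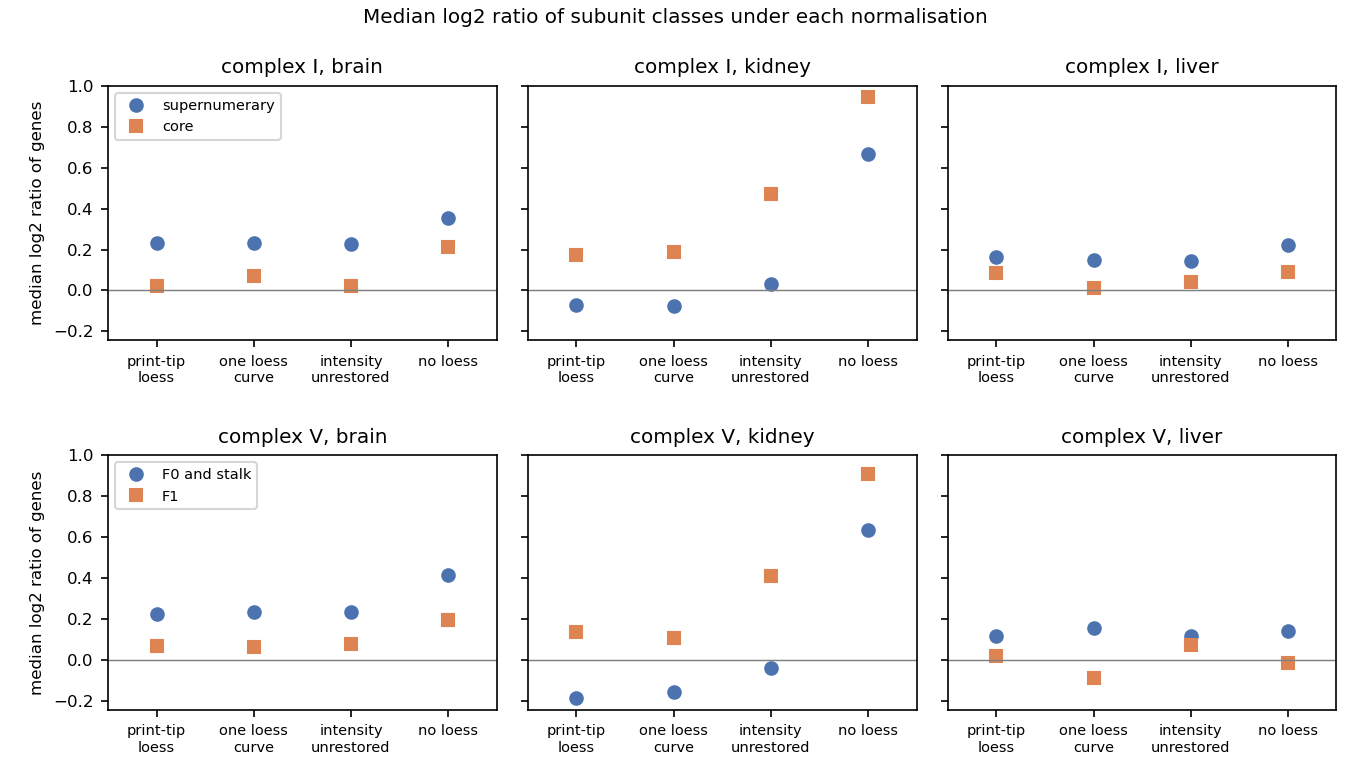
Median log2 ratio over the genes of each subunit class in complex I (upper row) and complex V (lower row), by tissue (columns) and under 4 ways of normalising the arrays. In kidney the squares (core or F1) lie above the circles (supernumerary, or F0 and stalk) under all 4 although both rise without loess, and in brain and liver the circles lie above the squares under all 4.

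Counts for other nuclear genes of mitochondria are to be read against the share of all features that passed, 13.8% in brain, 38.4% in kidney and 22.7% in liver, and many lists lay near or below it. Of 72 mitochondrial ribosome proteins, which translate the mitochondrial genes, 15 were higher and 1 lower in brain (median 0.14), with Mrps14 at 0.70 ± 0.24. In kidney 14 were higher and 9 lower (50 and 4 without loess), with Mrpl38 at 0.95 ± 0.30, and in liver 11 were higher and 3 lower, with Mrpl1 at 0.54 ± 0.32. Of 18 genes of the protein import channels, 7 were higher and 0 lower in brain (median 0.17), led by Timm44 at 0.80 ± 0.46 and Tomm5 at 0.51 ± 0.24. In kidney 2 were higher and 2 lower (13 and 2 without loess), and in liver 3 higher and 1 lower. In brain 7.51% of all features were higher.

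In kidney 7 of 15 genes of the citric acid cycle were higher and 1 lower, with a median of 0.23, among them Fh1, fumarase, at 0.56 ± 0.22 (limma adjusted p = 0.000158), Suclg2 at 0.40 ± 0.09 and Suclg1 at 0.30 ± 0.23. The median stayed above 0 under the other normalisations, at 0.21 with 1 loess curve per array, 0.27 with unrestored intensity and 0.83 without loess, where the oxidative phosphorylation genes were at 0.65. The higher genes of the cycle numbered 4 with 1 loess curve per array and 11 without loess, and its difference from the oxidative phosphorylation genes was not tested. In brain 1 was higher (Idh3b, 0.35 ± 0.21), and in liver 1 was higher and 4 lower, with Pdha1 at -0.79 ± 0.40 and Suclg2 at -0.44 ± 0.20.

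Of 12 regulators of mitochondrial gene expression, 6 were higher and 3 lower in kidney (3 and 1 with unrestored intensity, 4 and 4 without loess), with Polg, the mitochondrial DNA polymerase, at 0.53 ± 0.25, Polrmt, the mitochondrial RNA polymerase, at 0.41 ± 0.19 and the coactivator Pprc1 at 0.40 ± 0.18. None passed in brain, and in liver 2 were higher and 1 lower, Pprc1 at -0.52 ± 0.27. Among 14 assembly factors of complex IV, 2 were higher in brain (Coa5 at 0.63 ± 0.36, Cox19 at 0.44 ± 0.14), 2 higher and 1 lower in kidney and 2 higher and 1 lower in liver, with Cox11 at 0.57 ± 0.13. Among 11 of complexes II, III and V, 1 was higher in brain, 3 higher and 1 lower in kidney (Atpaf2 at 0.54 ± 0.14, Sdhaf4 at 0.52 ± 0.15) and 2 higher and 1 lower in liver. Of 6 further complex I assembly factors, 1 was lower in brain (Nubpl, -0.31 ± 0.21), 2 lower in kidney and 1 higher and 1 lower in liver, with Timmdc1 lower in kidney (-0.35 ± 0.12) and liver (-0.44 ± 0.15). Of 12 carriers and uncouplers, 0 passed in brain and liver, and 2 were higher and 3 lower in kidney, with the phosphate carrier Slc25a3 at -0.28 ± 0.10.

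Some markers of the cells in each tissue passed the threshold, at shares to be read against the 13.8%, 38.4% and 22.7% of all features that passed in brain, kidney and liver. In brain 1 of 9 neuronal markers was higher (median 0.02), while 2 of 8 astrocyte markers (median -0.17) and 2 of 7 oligodendrocyte markers (median -0.20) were lower. In kidney of 9 genes marking distal tubule or collecting duct 6 were lower and 1 higher (median -0.33, and 0.15 without loess), Kcnj1 at -0.81 ± 0.23 and Umod at -0.78 ± 0.10, while 2 of 9 proximal tubule markers were higher and 2 lower (median 0.09, and 0.75 without loess). Erythroid markers were lower in kidney for 2 of 3 genes (median -0.46, and 0.17 without loess). In liver 1 of 8 hepatocyte markers was higher and 3 lower (median 0.19), and 1 of 5 macrophage markers was lower. The part of cell composition in the ratios of the respiratory genes was not tested.

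Promoters were searched on both strands for the letters of 4 motifs known from nuclear genes of mitochondria. The motif of NRF1, in its form that reads the same on both strands, was in 3 of the 69 promoters (4.35%) against 0.781% of the 27025 genes in the table. The ETS motif CCGGAAG, bound by the GABP factor among others, was in 12 (17.4%) against 7.05%. The SP1 motif GGGCGG was in 28 (40.6%) against 32.9%, and the YY1 motif AAGATGGC in 0 against 1.59%. No motif contains another. The 12 genes with the ETS letters had a median brain ratio of 0.32 against 0.17 for the 57 without. Their median kidney ratio was -0.13 against -0.07 and their median liver ratio 0.23 against 0.09. The 3 genes with the NRF1 letters went the other way in brain, at -0.046 against 0.214 for the 66 without. In kidney they were at -0.141 against -0.075 and in liver at 0.115 against 0.13. With the SP1 letters medians were 0.214 against 0.183 in brain, -0.091 against -0.075 in kidney and 0.2 against 0.092 in liver. These differences were not tested. In the sequences printed above, the SP1 letters lie 225 bases before the start of Ndufa1 and 88 before that of Atp5j, both on the opposite strand, and at 241, 80 and 60 bases before the start of Ndufa13. These are matches of letters in a window and not binding sites.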

How the data were processed

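Strain ratios of total RNA were measured on two-colour glass arrays. Per the labels, the authors extracted values with Spot and normalised them by print-tip lowess in limma. Neither tool versions nor a background correction step is named there. The authors deposited 1 table of log2 ratios for 23040 spots. Of these 1275 were 0 on all arrays and were left out. In the other 21765, 100.0% of values were ratios of whole numbers up to 65535 (tolerance 1e-12), so the values were treated as unnormalised ratios, which departs from the labels. Spot intensities were recovered from those whole numbers, with the common factor lost by cancelling restored from each spot's other arrays of its tissue (assumed SD 0.4, log2). Ratios were then corrected by print-tip loess (span 0.3, 4 iterations, 48 blocks) and spots of a gene averaged.

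Gene names came from the platform annotation: 16642 spots had 1 symbol, 134 several and 4989 none. Each tissue's mean was tested against 0, and differences between tissues in a fit of all 18 arrays, in limma 3.58.1 (R 4.3.3), with Benjamini-Hochberg adjustment over 20218 features and a threshold of 0.05. The scripts were tested on simulated data.

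Genes named are, per tissue, up to 12 highest and 12 lowest among those past the threshold with 1 sign on all 6 arrays, those past it in all 3 tissues, up to 8 largest tissue differences each way, genes with more than 1 spot, complex II and cytochrome c, and up to 3 per other list and tissue. Other genes named complete a count or a subunit class, or were chosen after their values were seen. Members and lists were chosen with earlier results of these data known. Alternatives were no loess, 1 loess curve per array, unrestored intensity, arrays scaled to equal spread, the dimmer features left out, the brightest spot per gene, a replicate block and each array left out. The precision is limited by the number of arrays and of RNA pools.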

Additional observations from a re-analysis of the deposited data

Results flagged for a closer look

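Of 105 groups of 6 arrays tested for an array far from the other 5 (Dixon's test), 12 had one. Chance gives about 1 in 20 for independent groups. These groups share arrays and genes and many were picked by their values, so the 12 cannot be weighed against that rate. In liver, array 1 was the highest and apart for the median of all members (0.28, the others 0.05 to 0.13), for the median of complex IV (0.37, the others 0.009 to 0.07) and for Atp5e (0.78, the others 0.30 to 0.45). In brain, array 1 was the lowest and apart for the median of the complex I core subunits (-0.34, the others 0.06 to 0.28) and for Atp5j2 (0.0155, the others 0.58 to 0.88), and array 6 was the highest for the median of complex II (0.43, the others 0.07 to 0.21). In kidney, array 5 was the lowest and apart for Atp5md (-0.76, the others -0.16 to 0.07), Cox7c (-0.63, the others -0.36 to -0.22) and Ndufb3 (-0.55, the others -0.30 to -0.17). Kidney array 4 was the lowest for Ndufaf6 (-0.79, the others -0.56 to -0.43) and Ndufs6 (-0.48, the others -0.38 to -0.33), and kidney array 3 for the median of complex II (-0.24, the others -0.002 to 0.10).

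The strain ratio differed between tissues by limma's test of the difference for the genes below, with values as log2 ratio in the first tissue minus the second. Brain minus kidney was 0.97 for Cox6c, 0.94 for Ndufa1, 0.93 for Atp5j, 0.92 for Cox7c, 0.88 for Ndufb3, 0.85 for Atp5e, 0.80 for Ndufs6, 0.80 for Atp5j2, -0.80 for Ndufa13, -0.50 for Ndufv1 and -0.42 for Atp5g2. Brain minus liver was 0.52 for Sdhc, 0.46 for Uqcrb, 0.42 for Ndufs6, 0.42 for Cox7a2, 0.42 for Ndufb3, -0.79 for Ndufa12, -0.55 for Ndufa13 and -0.47 for Ndufab1. Kidney minus liver was 0.43 for Sdha, 0.34 for Cyc1, 0.28 for Atp5a1, -0.72 for Atp5e, -0.71 for Atp5j, -0.64 for Cox7c, -0.63 for Atp5k-ps1, -0.62 for Cox6c, -0.62 for Ndufa1, -0.58 for Uqcr11 and -0.57 for Ndufb9.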

How the results depend on the processing

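Normalisation decided the kidney results. Without loess, the members past the threshold were 45 in brain (43 higher), 77 in kidney (72 higher, 5 lower), 2 higher and 31 lower for brain minus kidney, 5 in all and 1 lower for brain minus liver, and 55 (51 higher, 4 lower) for kidney minus liver. The kidney medians were then 0.65 for all members, 0.67, 0.70, 0.56, 0.65 and 0.71 for complexes I to V, 0.94 and 0.67 for core and supernumerary subunits of complex I, and 0.91 and 0.63 for F1 and for F0 with stalk. In brain the F1 median was 0.19 and that of F0 with stalk 0.42. With unrestored intensity, 9 members were lower in kidney and 4 in liver, brain minus kidney had 23 (19 higher), brain minus liver 5 (3 higher), and kidney minus liver 6 higher and 14 lower. The kidney medians were then 0.0752 for all members, 0.0855, 0.17 and 0.16 for complexes I to III, -0.00932 for complex V, 0.47 and 0.0318 for core and supernumerary subunits and 0.41 for F1. With 1 loess curve per array, kidney had 21 members past the threshold (15 lower) and brain minus liver 4 (2 higher), and leaving out the dimmer features gave 5 higher for kidney minus liver.

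Without loess, the sign of the kidney ratio turned for Atp5b (0.89), Atp5e (0.69), Atp5j (0.49), Atp5md (0.48), Cox6c (0.65), Cox7c (0.66), Cycs (0.68), Ndufa1 (0.46), Ndufa12 (0.70), Ndufa2 (0.67), Ndufa4 (0.67), Ndufb2 (0.45), Ndufb3 (0.60), Ndufs6 (0.40), Sdhb (0.79), Sdhc (0.49), Uqcr11 (0.66), Uqcrfs1 (0.28) and Uqcrq (-0.14). The sign of kidney minus liver turned for Atp5e (0.14), Atp5j (0.0244), Atp5k-ps1 (0.22), Cox6c (0.37), Cox7c (0.41), Ndufa1 (0.26), Ndufb9 (0.35) and Uqcr11 (0.32), and that of brain minus kidney for Atp5j2 (-0.00394) and Cox7c (-0.0258). Uqcrb in liver was 0.0129 without loess and 0.00754 with unrestored intensity, and with the latter Uqcr11 was 0.0543 and Uqcrfs1 0.11 in kidney. The cause was not tested.

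Leaving out 1 array gave 16 to 41 members past the threshold in brain (14 to 37 higher, 2 to 4 lower), 19 to 29 in liver (14 to 24 higher, 3 to 5 lower), 2 to 5 lower for brain minus kidney, 5 to 19 for brain minus liver (3 to 15 higher) and 1 to 4 higher for kidney minus liver. Of the values of named genes without 1 array, 720 kept the call or its absence, with the direction kept where past the threshold. Another 88 kept the direction but not the call, and 2 gained the call. Under the other settings 548 were kept in that sense, 70 kept the direction but not the call, 6 gained the call and 33 turned in sign. Replicate numbers shared between tissues did not pair the arrays, whose deviations with the same number correlated by -0.229 to 0.159, and with a replicate block 37, 7 and 24 members passed for brain minus kidney, brain minus liver and kidney minus liver, against 37, 8 and 25 without it.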
